A study of Arabidopsis thaliana with 48 samples.

Results

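The comparison described here is that of Arabidopsis thaliana seedling roots after 12 h on medium holding indole-3-acetic acid (IAA), the main natural auxin, at 1 µM with roots after 12 h on control medium, 3 arrays in each group. These 6 arrays were chosen by their labels, out of 48 arrays in 16 groups of 3 that the series holds, for 8 times on either medium from 0 to 24 h. The seedlings of both groups were 6 days old. They had grown in continuous light on a nylon mesh over agar medium with sucrose and were carried to the new medium on that mesh, and total RNA of the whole root was hybridised to Affymetrix expression arrays. No mutant or transgene is given for any group, and the labels do not say whether the 3 arrays of a group came from separate cultures. The p-values below thus measure the spread between arrays of a group, pooled over all 16 groups, and not a known spread between cultures.

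Auxin acts on transcription by promoting the breakdown of Aux/IAA repressors, which frees auxin response factors at their target genes. Early targets include the Aux/IAA genes themselves and GH3 genes, whose enzymes join IAA to amino acids and so limit free auxin. In roots, auxin is known for starting lateral root primordia through LBD transcription factors, for holding back elongation of the primary root, and for changing the cell wall. By 12 h on auxin the direct response is joined by genes that answer later, and in whole roots a change in the number of cells of a type and a change in RNA per cell cannot be told apart.

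Values are the authors' deposited log2 intensities, so a difference of 1 is a 2-fold difference. Changes are IAA minus control with the standard error (SE) of a limma fit over all 48 arrays, and a probe set was called at an adjusted p under 0.05 (Benjamini-Hochberg over 22746 probe sets). A gene is named only where the array's gene table gives exactly 1 gene for the probe set (13513 probe sets). Most loci carry no symbol in the gene tables used here (11798 of 13355 genes), and such a locus is given by its number, without a role. Gene lists were matched by symbol, synonym or locus number, so a family member without a matching name is not counted as measured. Counts of list members below are therefore of the matched list, not of the whole family.

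Among the 12 h arrays the 3 IAA arrays were the most alike, with correlations of 0.9932 to 0.9945 over probe sets. Control replicates 1 and 2 correlated at 0.9891. Control replicate 3 stood apart, at 0.9764 and 0.9713 with the other controls, and several of the results that rest on it are given with and without it. PYK10, a beta-glucosidase abundant in roots, read 14.18, 14.28 and 14.16 on IAA arrays and 14.11, 14.13 and 14.28 on control arrays. The mean of 9 photosynthesis markers lay between 6.86 and 6.98 on IAA arrays and between 6.56 and 6.88 on control arrays. The array values have no read depth, and 3 arrays a group limit the precision of every value.

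As a check of the labels, known auxin targets were read first, GH3.3 (AT2G23170), a GH3 amido synthetase gene, and LBD29 (AT3G58190), a factor of lateral root initiation. GH3.3 read 12.71, 12.64 and 12.10 on the IAA arrays, against 7.59, 8.93 and 6.92 on the control arrays. LBD29 read 11.31, 11.23 and 11.23 on the IAA arrays, against 6.57, 6.94 and 6.55 on the control arrays. Every IAA array exceeded every control array in both genes. The changes were 4.67 ± 0.56 for GH3.3 (adjusted p = 6.2e-08) and 4.57 ± 0.25 for LBD29 (adjusted p = 1.7e-16). At 0 h, after fewer than 5 minutes on the medium, they were -0.56 ± 0.56 and -0.23 ± 0.25. No probe set of 22746 was called then by limma (181 at an unadjusted p under 0.05). With no difference 1137 would be expected at that unadjusted p. The test was thus conservative there, for a reason that was not tested, and the lack of calls does not show that the groups were equal.

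At 12 h, 2483 of 22746 probe sets (10.9%) were called, 1362 higher (5.99%) and 1121 lower (4.93%) on IAA. A fold of at least 2 was reached by 433 of the rises and 368 of the falls, and the largest changes were mostly rises, with 45 rises and 9 falls of at least 8-fold. Of the 2-fold calls, 799 of 801 had an IAA mean outside the range of the 8 control group means of the whole time course. These calls were chosen for their distance from the 12 h control mean, 1 of those 8. Much of this count thus follows from the choice and is no separate support. No probe set was called between the control arrays of 12 h and of 0 h (469 at an unadjusted p under 0.05). That is again below the 1137 expected with no difference, so small changes between the controls could be missed. Probe sets with exactly 1 gene gave 718 higher (5.38%) and 637 lower (4.77%) among 13355 genes (10.1% in all), and the median change over these genes was -0.0062. The count of calls fell to 993 without replicate 1 in every group and to 1348 without replicate 2, and was 2020 without control 12 h replicate 3, 1773 of them in the same direction as with all arrays. With the replicate number as a block the count was 3346, and all 2483 calls were among them in the same direction.

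The largest rise of a named gene was that of PR-1-LIKE (AT2G19990), a relative of the secreted pathogenesis-related protein 1. It read 13.76, 13.92 and 13.80 on the IAA arrays, against 7.06, 7.93 and 6.97 on the control arrays. Its level on IAA was near the top of the array's range, 91.0-fold above control (6.51 ± 0.39, adjusted p = 2.4e-15), and the change was 6.33 without control replicate 3. AT2G19970, which lies on the same chromosome with 1 protein-coding gene between it and PR-1-LIKE in the TAIR10.1 annotation, rose 34.2-fold. AT2G19970 read 14.31, 14.42 and 14.31 on IAA arrays, against 9.18, 9.87 and 8.71 on control arrays. These were the highest IAA means among the 20 largest rises.

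The 20 largest rises ran from 10.6-fold to 91.0-fold, and 7 of them carry a symbol. Beside those above, the symbols are EXPB2, a wall-loosening beta-expansin, WES1 (GH3.5) and GH3.1, further GH3 amido synthetases, and PAP20, of the purple acid phosphatases. EXPB2 (AT1G65680) read 11.09, 11.30 and 10.55 on IAA arrays, against 6.02, 6.28 and 6.69 on control arrays. It rose 25-fold from a control level close to the lower quartiles of the arrays. PAP20 read 9.32, 9.08 and 8.94 on IAA arrays, against 5.67, 5.42 and 5.75 on control arrays, an 11.3-fold rise (3.50 ± 0.17, adjusted p = 5.1e-18). Its control mean, like that of AT5G14650, was below the lower quartile of every array, so the size of both rises is uncertain on its low side.

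AT5G14650 read 11.44, 11.30 and 11.10 on IAA arrays, against 6.28, 6.26 and 5.48 on control arrays, a 38.6-fold rise. Further unnamed loci among the first 10 were AT5G52390 (28.6-fold), AT5G47550 (25.7-fold), AT1G67750 (23.6-fold) and AT1G30760 (22.9-fold). AT1G67750 read 13.23, 13.46 and 13.20 on IAA arrays, against 8.58, 8.64 and 8.98 on control arrays. In each of the 20 all IAA arrays lay above all control arrays, as the choice of genes required (32.6% of all probe sets had their 3 IAA arrays beyond their 3 control arrays in either direction). The SD of the IAA arrays was over 0.5 in 1 of the 20, AT5G52390, and that of the control arrays in 4. None of the 20 lost its 12 h call under any alternative run, the leaving out of single arrays included.

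**Figure D1:**
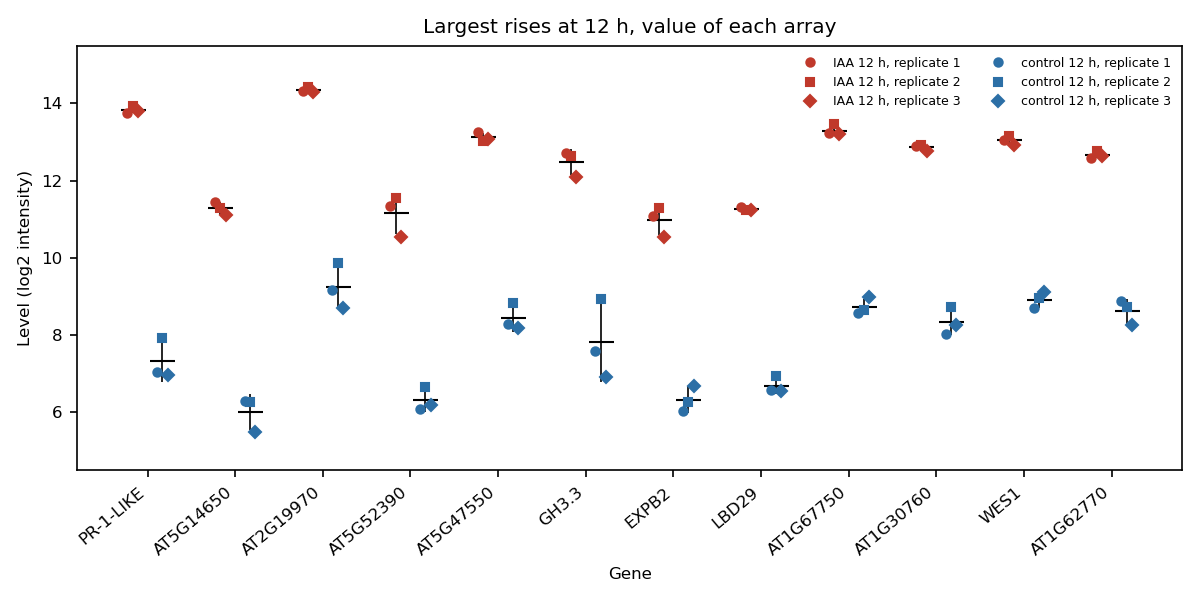
Levels (log2 intensity, y axis) of the 12 largest rises among named genes on each array of 12 h, IAA in red left of control in blue, with the replicate given by the marker and black bars for mean ± SD. No IAA array of these genes falls to the level of a control array, and PR-1-LIKE shows the widest gap, with a change of 6.51.

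The largest falls were smaller than the rises, and their control arrays were further apart. The 20 largest ran from 4.40-fold to 13.9-fold, only 2 of them carry a symbol, and the SD of the control arrays was over 0.5 in 11 of them. Control replicate 3 lay over 1 log2 unit from the mean of the other controls in 9 of the 20, against 2 of the 20 rises. It was the highest control array in 8 of the falls and the lowest in 9.

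AT5G04120 had the largest fall, with 6.58, 6.79 and 7.93 on IAA arrays, against 11.00, 9.57 and 12.13 on control arrays. The change was -3.80 ± 0.88 (adjusted p = 0.0024), -3.19 without control replicate 3 (adjusted p = 0.031) and -4.47 without control replicate 2. AT4G11210 read 7.13, 7.16 and 7.94 on IAA arrays, against 10.71, 9.65 and 11.39 on control arrays. In both genes replicate 3 was the highest array of its medium. AT4G11190, the next protein-coding gene to AT4G11210, and AT1G14960 likewise had replicate 3 as the highest array of each medium, and their calls were lost without control replicate 3 (adjusted p = 0.11 and 0.065). That of AT4G11190 was also lost without IAA replicate 1 or 2 (adjusted p = 0.062 and 0.053).

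AT2G41730 had the opposite pattern among the controls. It read 7.45, 7.80 and 7.39 on IAA arrays, against 11.83, 12.23 and 9.24 on control arrays. AT2G21640 read 6.84, 6.80 and 6.68 on IAA arrays, against 10.80, 10.98 and 7.86 on control arrays. Control replicate 3 thus lay nearest to the IAA arrays in both, without overlap. The changes were -3.55 ± 0.83 and -3.11 ± 0.69 with all arrays, and -4.48 and -4.12 without control replicate 3. AT5G43450 was of the same kind, with 6.79, 7.21 and 6.65 on IAA arrays and 10.05, 10.56 and 7.50 on control arrays. Its change was -2.49 with all arrays, -3.42 without control replicate 3 and -1.89 without control replicate 2. Its call was lost without control replicate 1 or 2 or IAA replicate 3 (adjusted p = 0.075, 0.12 and 0.053). The probe set of AT2G41730 is of a type that can also bind transcripts of other genes.

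AT4G25250, AT3G59370 and AT1G18980 had closer controls, with SDs of 0.43, 0.23 and 0.32, while that of AT5G66815 was 0.64. AT5G66815 read 5.35, 5.44 and 5.65 on IAA arrays, against 8.70, 9.10 and 7.84 on control arrays, a change of -3.06 ± 0.25 (adjusted p = 5.3e-12). Its IAA mean was below the lower quartile of every array. AT1G18980 fell at a higher level, with 9.06, 9.05 and 9.45 on IAA arrays, against 11.49, 12.12 and 11.77 on control arrays. The remaining symbol among the falls was SUFE2, a sulphur E protein of iron-sulphur cluster assembly, which read 7.35, 7.43 and 7.55 on IAA arrays and 9.66, 9.91 and 9.18 on control arrays.

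**Figure D2:**
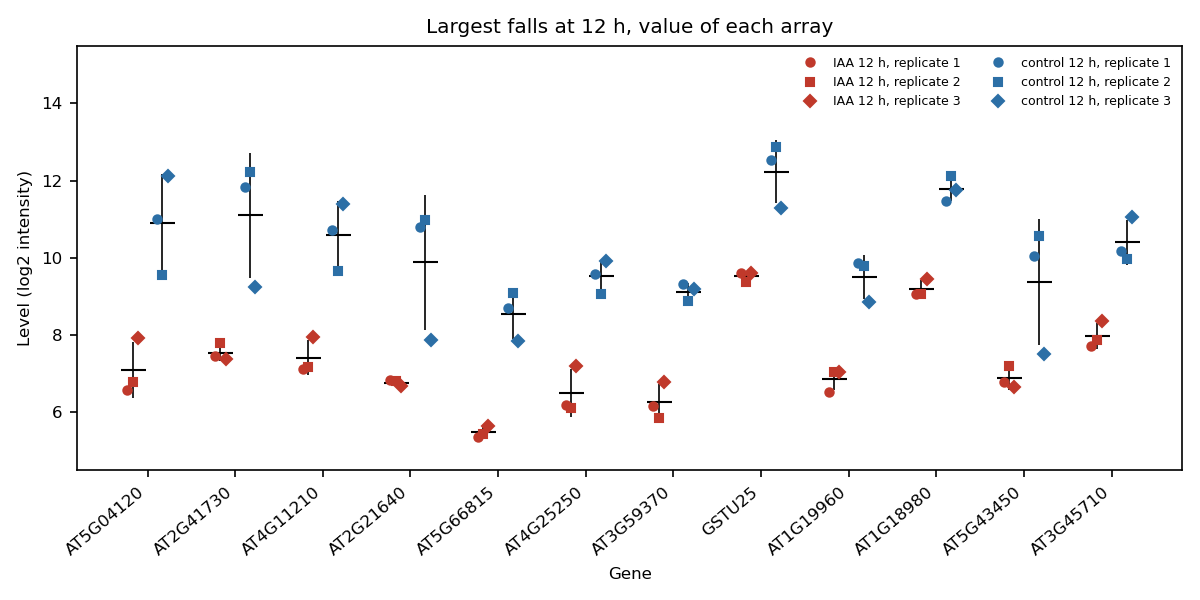
Levels (log2 intensity, y axis) of the 12 largest falls among named genes on each array of 12 h, IAA in red left of control in blue, with the replicate given by the marker and black bars for mean ± SD. The blue diamonds, control replicate 3, lie above the other controls in AT5G04120 and AT4G11210 and well below them in AT2G41730, AT2G21640 and AT5G43450.

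Over all genes 10.1% were called, 5.38% higher and 4.77% lower. A list whose share of calls lies near these is not set apart by its count. Auxin conjugation genes were called in 1 direction. Of 7 measured members of the conjugation and oxidation list, 4 were higher and none lower, with a median change of 1.84, against -0.0062 over all genes. The 4 were GH3.17 and, from the rises above, GH3.3, GH3.1 and WES1. WES1 read 13.06, 13.16 and 12.91 on IAA arrays, against 8.70, 8.96 and 9.11 on control arrays (17.4-fold). GH3.17 (AT1G28130), whose enzyme joins IAA to glutamate, started from a high control level. It read 11.99, 12.00 and 12.01 on IAA arrays, against 10.01, 9.92 and 10.54 on control arrays, a 3.58-fold rise. All 4 calls were kept without control replicate 3.

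Of the 7 measured Aux/IAA repressor genes, 2 were higher and none lower. IAA29 read 8.14, 8.27 and 7.90 on IAA arrays, against 6.12, 5.98 and 6.08 on control arrays, a change of 2.04 ± 0.36 (adjusted p = 8.8e-05). IAA18 read 9.54, 9.83 and 9.63 on IAA arrays, against 8.22, 8.35 and 7.97 on control arrays. The other members ranged from -0.22 to 0.63 and the median was 0.0008. YUC6, 1 of 4 measured biosynthesis genes and a YUCCA flavin monooxygenase of the last step to IAA, was lower by a small amount, with a change of -0.33 ± 0.10 (adjusted p = 0.035). Its call was lost without any 1 of the 6 arrays, with adjusted p from 0.053 to 0.12.

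Of 5 measured lateral root regulators LBD29 alone was called at 12 h in the limma fit used here, and CR4 was called with it without control replicate 3 (adjusted p = 0.0057). The count depended on the fit. It was 2 after quantile normalization, with a filter on low values and from the 12 h arrays alone, and 3 with the replicate number as a block. The members beside LBD29, named here after their values were seen, were PUCHI (0.70 ± 0.27, adjusted p = 0.089), LBD16 (0.52 ± 0.24, adjusted p = 0.19), CR4 (0.26 ± 0.09, adjusted p = 0.052) and RALFL34 (0.20 ± 0.12, adjusted p = 0.32). PUCHI and LBD16 had changes of 2.63 and 1.87 at 2 h, and the difference between 12 and 2 h passed the test in both (adjusted p = 0.0013 and 0.016). CLE44, which encodes a peptide that keeps vascular stem cells undifferentiated, was 1 of 18 measured peptide genes and the only one called. It read 10.30, 10.23 and 9.93 on IAA arrays, against 7.49, 8.05 and 6.93 on control arrays, a 6.32-fold rise. HAT2, an HD-ZIP factor, read 8.95, 9.10 and 9.03 on IAA arrays and 9.07, 8.89 and 9.36 on control arrays, and was not called at 12 h.

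Cell wall genes moved in both directions. Of 19 measured members of the expansin list, which also holds expansin-like genes such as EXLB1 and EXLA2, 5 were higher and 3 lower, with a median change of 0.026. The rises were EXPB2, EXPA4 (1.05 ± 0.32), EXLB1 (1.04 ± 0.29), EXPA9 (0.91 ± 0.29) and AT4G30380 (0.54 ± 0.15). The falls were EXPB1, EXLA2 and EXPA8. EXPB1 read 7.50, 7.48 and 7.68 on IAA arrays, against 9.31, 8.83 and 9.92 on control arrays, a change of -1.80 ± 0.32. Calls of EXPA4 were lost without IAA replicate 1 or 2 or control replicate 1 or 2 (adjusted p from 0.066 to 0.13), and that of EXLB1 without replicate 3 of either medium. EXPA9 lost its call without any array but control replicate 3 (adjusted p from 0.056 to 0.11), and AT4G30380 without replicate 1 of either medium (adjusted p = 0.099 and 0.069). The list members called as higher thus numbered 2 without replicate 1 of either medium and 3 without replicate 2 of either or IAA replicate 3, whereas EXPB1, EXLA2 and EXPA8 were lower in each case.

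Of 10 measured xyloglucan enzymes, which cut and join wall xyloglucan, XTH16 and XTH21 were lower and none was higher. Without control replicate 3 XTH33 was called as higher (0.84, adjusted p = 0.020), and with the replicate number as a block the list also had 1 higher member. XTH16 read 6.30, 6.30 and 6.50 on IAA arrays, against 7.57, 7.62 and 8.01 on control arrays (-1.37 ± 0.22, adjusted p = 1.9e-05). Of 6 measured members of the pectin list, 2 were higher. They were the pectin methylesterase gene ATPMEPCRB (1.35 ± 0.33) and GAUT15 (0.99 ± 0.19) of the galacturonosyltransferases. Of 12 measured genes of cellulose and other wall polymers, CSLC12 (-0.70 ± 0.20), of the xyloglucan backbone synthases, and IRX15 (-0.65 ± 0.14), needed for xylan, were lower, and the call of CSLC12 was lost without replicate 2 of either medium (adjusted p = 0.14 and 0.10). Of 5 measured members of the class III peroxidase list, AT5G66390 (PRX72) was lower. It read 9.01, 9.26 and 9.38 on IAA arrays, against 11.05, 11.23 and 10.75 on control arrays, with no overlap.

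In the lists of enzymes that modify small molecules most members were not called, and the calls were mostly lower. The lists were chosen with earlier results of these data known, so this direction is not independent evidence. Of 13 measured glutathione transferases, which conjugate toxic and reactive compounds to glutathione, 3 were lower and none higher, with a median change of -0.58. GSTU25 read 9.60, 9.39 and 9.60 on IAA arrays, against 12.55, 12.86 and 11.30 on control arrays, a change of -2.71 ± 0.36 (adjusted p = 6.1e-07). GSTU28 read 7.02, 7.0 and 7.45 on IAA arrays, against 8.60, 8.34 and 9.74 on control arrays. Control replicate 3 was the lowest control in GSTU25 and the highest in GSTU28. Without it the changes were -3.17 for GSTU25 and -1.32 for GSTU28, and both were still called. GSTU27 changed by -0.58 ± 0.17, a call that was lost without IAA replicate 1 or 2 or control replicate 2 (adjusted p from 0.064 to 0.098). Without control replicate 3 the list held 5 lower members, with GSTU21 and GSTU22 added.

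Of 51 measured UGT glycosyltransferases, which attach sugars to hormones and phenolics, 10 were lower and 2 higher, with a median change of -0.19. UGT72E1, of the monolignol glucosyltransferases, read 8.82, 8.34 and 8.25 on IAA arrays, against 10.06, 10.35 and 9.90 on control arrays. UGT73B4 read 8.17, 8.14 and 8.03 on IAA arrays, against 9.98, 10.62 and 8.61 on control arrays, where replicate 3 was again the lowest. UGT76B1 changed by -1.36 ± 0.24 (adjusted p = 8.0e-05), and UGT84A4 by 1.22 ± 0.20 (adjusted p = 3.0e-05). The other 7 falls lay between -1.03 for UGT87A2 and -0.58 for UGT85A2, and the other rise was UGT71C3 (0.64 ± 0.19). UGT72E1 lost its call without IAA replicate 2 or 3 or control replicate 1 or 2 (adjusted p from 0.052 to 0.086). UGT73B4 lost it without control replicate 2 (adjusted p = 0.10) and kept it without control replicate 3 (-2.19). The count of 10 falls rests on single arrays, with 3 falls without control replicate 2 and 6 without IAA replicate 1, and it was 0 with the 0 h effect subtracted. UGT87A2 lost its call without any array but control replicate 3 (adjusted p up to 0.33), and UGT71C3 without IAA replicate 3 or control replicate 1 or 3, which left 1 rise.

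Of 22 measured cytochrome P450 genes, nearly all of the CYP71B subfamily of oxygenases, 5 were lower and none higher. In 10 of the 22 both group means were below the lower quartile of every array (3378 of 13355 over all genes), so a change could be missed there. CYP71B34 read 5.92, 5.92 and 6.57 on IAA arrays, against 8.23, 7.82 and 7.77 on control arrays (-1.81 ± 0.30, adjusted p = 2.6e-05). CYP71B26, its direct neighbour in the TAIR10.1 annotation, changed by -1.34 ± 0.29. The others were CYP71B23 (-1.25 ± 0.37), CYP84A4 (-0.59 ± 0.16) and CYP71B21 (-0.36 ± 0.12). The call of CYP71B21 was lost without IAA replicate 2 or 3 or control replicate 2 or 3 (adjusted p up to 0.25). Without control replicate 2 or 3, 3 of the list were called, with CYP84A4 at an adjusted p of 0.051 without control replicate 3, and CYP71B23 lost its call without replicate 1 or 2 of either medium (adjusted p from 0.057 to 0.15). Of 22 measured beta-glucosidases, BGLU28 (-1.48 ± 0.42), BGLU45 (-0.94 ± 0.26) and BGLU16 (-0.92 ± 0.19) were lower and none was higher (10.1% called over all genes). Both group means were below the lower quartile of every array in 7 of these 22. The calls of BGLU28 and BGLU45 were lost without control replicate 2 (adjusted p = 0.14 and 0.17) and without 2 further arrays each, and without control replicate 2 BGLU46 was called as higher.

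A list put together for the response to impaired mitochondria held 7 measured members, of which 4 were lower and 1 higher, with a median change of -1.26. It includes AT2G41730 and AT2G21640, described above. NDB2, an NAD(P)H dehydrogenase on the outer face of the inner mitochondrial membrane, read 9.48, 9.49 and 9.44 on IAA arrays, against 10.76, 11.08 and 10.35 on control arrays (-1.26 ± 0.19, adjusted p = 6.0e-06). NDB3 changed by -0.92 ± 0.31, a call lost without any array of 12 h but control replicate 3 (adjusted p from 0.072 to 0.17), and NDB1 by 0.41 ± 0.14, which was lost without the same arrays (adjusted p up to 0.22). AT5G09570 and NDB4 were not called, with changes of -1.98 ± 0.74 and -1.18 ± 0.62. AT5G09570 read 8.56, 8.78 and 8.16 on IAA arrays and 11.56, 11.44 and 8.43 on control arrays, so control replicate 3 overlapped the IAA arrays.

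The mean level of this list was 7.79, 7.92 and 7.64 on the IAA arrays, against 9.91, 10.06 and 8.35 on the control arrays. Control replicate 3 therefore stood between the IAA arrays and the other controls. Without it 5 members were lower, and its part in the differences was otherwise not tested. This list was put together with earlier results of these data known, so its direction is not independent evidence.

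Of 8 measured bHLH factors, 2 were higher and 2 lower. ILR3 (bHLH105), a factor of iron homeostasis and of the response to IAA-leucine, read 11.02, 11.23 and 11.13 on IAA arrays, against 10.06, 9.99 and 10.05 on control arrays (1.09 ± 0.10, adjusted p = 8.3e-11). BHLH101, a factor induced by iron shortage, read 7.18, 6.87 and 7.18 on IAA arrays, against 8.82, 8.64 and 8.14 on control arrays (-1.46 ± 0.48, adjusted p = 0.046). The call of BHLH101 was lost without any 1 of the 6 arrays (adjusted p from 0.051 to 0.14), while that of ILR3 held under every alternative run. AT1G22490 (bHLH94) changed by 0.50 ± 0.14. SPT, a factor of carpel and leaf growth, changed by -0.39 ± 0.13 and lost its call without any array but control replicate 3 (adjusted p up to 0.14).

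Of 21 measured bZIP factors, 3 were higher, AT4G38900 (bZIP29, 0.80 ± 0.19), bZIP44 (0.65 ± 0.19) and bZIP48 (0.57 ± 0.19), and 2 were lower, BZIP61 (-0.78 ± 0.25) and BZIP24 (-0.63 ± 0.13). The NAC014 factor changed by 0.35 ± 0.10 (adjusted p = 0.014). The calls of bZIP44, bZIP48, BZIP61 and NAC014 were each lost without 4 or more of the 6 arrays, taken singly, with adjusted p up to 0.12, 0.29, 0.15 and 0.092. None of 7 measured WRKY factors was called, and the largest change among them was that of WRKY22 (0.61 ± 0.57, adjusted p = 0.58). The iron and metal transport list had 1 call among 6 measured members (10.1% called over all genes), FRO1 (0.39 ± 0.13). In the gene tables this symbol stands for AT5G67590, FROSTBITE1, which is a subunit of mitochondrial complex I and no metal transporter, and its call was lost without any array but control replicate 3 (adjusted p up to 0.28).

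Sugar transporters were called in both directions. Of 19 measured SWEET and related genes, which carry sugars across membranes, 3 were higher and 1 lower. SAG29 (SWEET15) read 9.31, 8.99 and 8.62 on IAA arrays, against 6.57, 6.63 and 7.01 on control arrays, a 4.71-fold rise (2.24 ± 0.15, adjusted p = 1.1e-13). SWEET14 read 6.80, 6.49 and 6.65 on IAA arrays, against 8.82, 8.20 and 8.41 on control arrays (-1.83 ± 0.33). SWEET9 changed by 1.07 ± 0.23 and TMT2, a vacuolar sugar carrier, by 0.37 ± 0.12. Of 12 measured nitrate and ammonium genes, AT1G59740 (NPF4.3, 1.13 ± 0.24) was higher and AT3G21670 (NPF6.4, -0.96 ± 0.29) lower (10.1% called over all genes). The calls of TMT2 and AT3G21670 were lost without 4 or more of the 6 arrays, taken singly (adjusted p up to 0.11 and 0.12).

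Among cell division and structure genes, calls were few (10.1% called over all genes). SIM, an inhibitor of cyclin-dependent kinases known for promoting endoreplication, was the 1 call of 8 measured cell cycle genes. It read 10.70, 10.66 and 10.64 on IAA arrays, against 9.83, 9.66 and 9.79 on control arrays (0.91 ± 0.15, adjusted p = 4.7e-05). TUB1, a beta-tubulin, was the 1 call of 7 tubulins (-0.94 ± 0.31, adjusted p = 0.042), and the call was lost without any array but control replicate 2 (adjusted p up to 0.17). No histone of 7 was called, and the largest change there was that of HIS1-3, a linker histone (-1.17 ± 0.53, adjusted p = 0.16).

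In the pathogenesis-related list, 2 of 17 measured members were higher and none lower (10.1% called over all genes). The 2 were PR-1-LIKE and the defensin gene PDF2.5 (0.96 ± 0.22, adjusted p = 0.0020). Members without a call ranged from -0.32 to 0.78. In 8 of the 17 both group means were below the lower quartile of every array (3378 of 13355 over all genes), so a change could be missed there. Of 11 measured genes of abscisic acid and water stress, AT2G44060 (LEA26, 0.60 ± 0.19) and AT2G46140 (LEA27, 0.51 ± 0.13) were higher and COR15B (-0.42 ± 0.14) lower, and AT2G44060 and COR15B lost their calls without any 1 of the 6 arrays (adjusted p up to 0.16 and 0.19). AT2G46140 lost its call without control replicate 1 (adjusted p = 0.080). Of 9 photosynthesis markers PSBY, a photosystem II subunit, was called, with 7.73, 8.04 and 7.24 on IAA arrays and 6.72, 6.61 and 6.66 on control arrays. PSBY is the direct neighbour of AT1G67750, which rose 23.6-fold, and whether signal of the neighbour enters its probe set was not tested. The other 8 markers ranged from -0.34 to 0.36.

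Of 43 lists with a measured member, 17 had no called member, 45 genes in all and at most 7 in a list. They include cytokinin (6 members, 5 with both group means below the lower quartile of every array), root meristem regulators (4), gibberellin (3) and the core low-oxygen genes (2). The largest changes among them beside HIS1-3 and WRKY22 were those of ORA47 (-1.0 ± 0.57, adjusted p = 0.30) and GID1B, a gibberellin receptor (0.61 ± 0.26, adjusted p = 0.14). EIN3 of ethylene signalling (0.29 ± 0.17) and the clock gene GI (-0.06 ± 0.13) were likewise not called. These lists are too small to speak for their pathways.

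**Figure D3:**
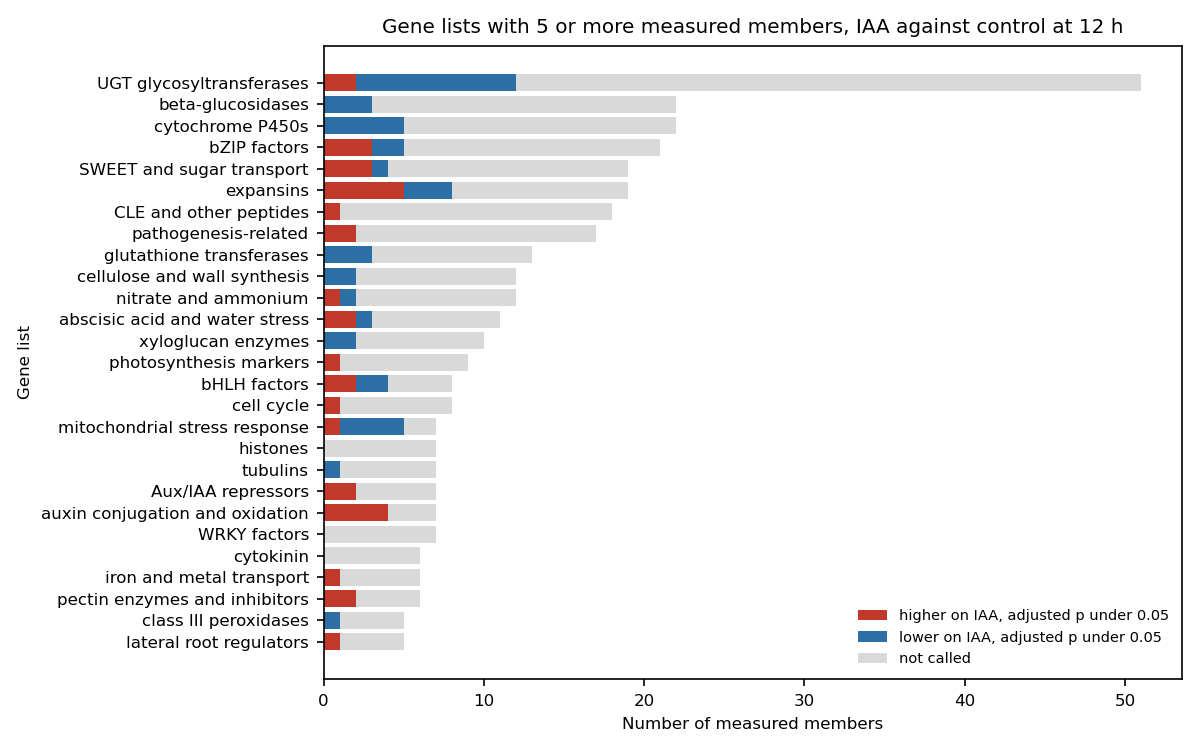
Number of measured members (x axis) in each gene list with 5 or more (y axis), split into higher on IAA (red), lower on IAA (blue) and not called (grey) at 12 h. Auxin conjugation has red calls alone (4 of 7), UGT glycosyltransferases have 10 blue and 2 red of 51, and the background over all genes is 10.1% called.

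How the 12 h response relates to the other times was asked next, since each time has its own controls. Of the 2483 calls at 12 h, 1745 were called in the same direction at 8 h, which is 70.3% of the 12 h calls and 51.6% of the 8 h calls (14.9% of probe sets were called at 8 h). At 24 h 963 were shared, 38.8% of the 12 h calls and 60.5% of the 24 h calls (background 7%). At 2 h 718 were shared, 28.9% of the 12 h calls and 34.3% of the 2 h calls (background 9.21%). Opposite calls were rare, with 1 at 8 h, 8 at 24 h and 25 at 2 h. For the 801 changes of at least 2-fold, the median ratio of the change to that at 12 h was 0.21 at 1 h, 0.43 at 2 h, 0.74 at 4 h, 0.97 at 8 h and 0.66 at 24 h.

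Of the 1362 rises at 12 h, 87 were first called at 0.5 h, 66 at 1 h, 270 at 2 h, 285 at 4 h, 312 at 8 h and 342 at 12 h. Of the 1121 falls, 16 were first called at 0.5 h and 38 at 1 h, then 263 at 2 h, 281 at 4 h, 236 at 8 h and 287 at 12 h. Over all probe sets 1.18% were called at 0.5 h and 1.94% at 1 h. Of the 20 largest rises, 6 were already called at 0.5 h, 17 at 2 h and all 20 at both 8 and 24 h. Of the 20 largest falls, 1 was called at 0.5 h, 7 at 2 h, 19 at 8 h and 14 at 24 h. Calls shared by times do not show equal changes, and the differences between times were tested directly.

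Between 12 and 2 h the IAA effect differed at 754 probe sets (3.31%), 460 in the positive (2.02%) and 294 in the negative direction (1.29%). Of the positive differences 349 were rises at 12 h, and of the negative ones 114 were falls at 12 h. PR-1-LIKE (4.97 ± 0.55, adjusted p = 9.9e-08) and EXPB2 (4.83 ± 0.36, adjusted p = 1.0e-11) led, with AT5G14650 and AT2G19970. EXPB2 had a change of -0.18 ± 0.25 at 2 h, and AT3G22060 one of 0.07 ± 0.28, against 4.64 and 3.85 at 12 h. On the negative side stood GSTU25 (-2.55 ± 0.51), AT5G22860 (-2.46 ± 0.32), UGT73B4 (-2.13 ± 0.60) and AT1G18980 (-2.09 ± 0.36). Without replicate 1 in every group 142 probe sets were called and without replicate 2 237, and UGT73B4 was called without control 12 h replicate 3 but not without any other array of 12 h. With the replicate number as a block 1224 probe sets were called.

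Some genes passed through 0 between those times. AT5G22860 was higher at 2 h (1.34 ± 0.23) and lower at 12 h (-1.12 ± 0.23). GH3.17 was the reverse, lower at 2 h (-0.95 ± 0.25) and higher at 12 h (1.84 ± 0.25), a difference of 2.79 ± 0.36 (adjusted p = 2.0e-06), while the changes of GH3.3, WES1 and LBD29 did not differ beyond the test between 2 and 12 h. The intervals left room for change in these, with differences of -0.91 ± 0.79, 0.23 ± 0.33 and 0.45 ± 0.35. HAT2 had its largest change, 2.33, at 0.5 h, and its difference between 12 and 2 h was -1.09 ± 0.34 (adjusted p = 0.073).

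**Figure D4:**
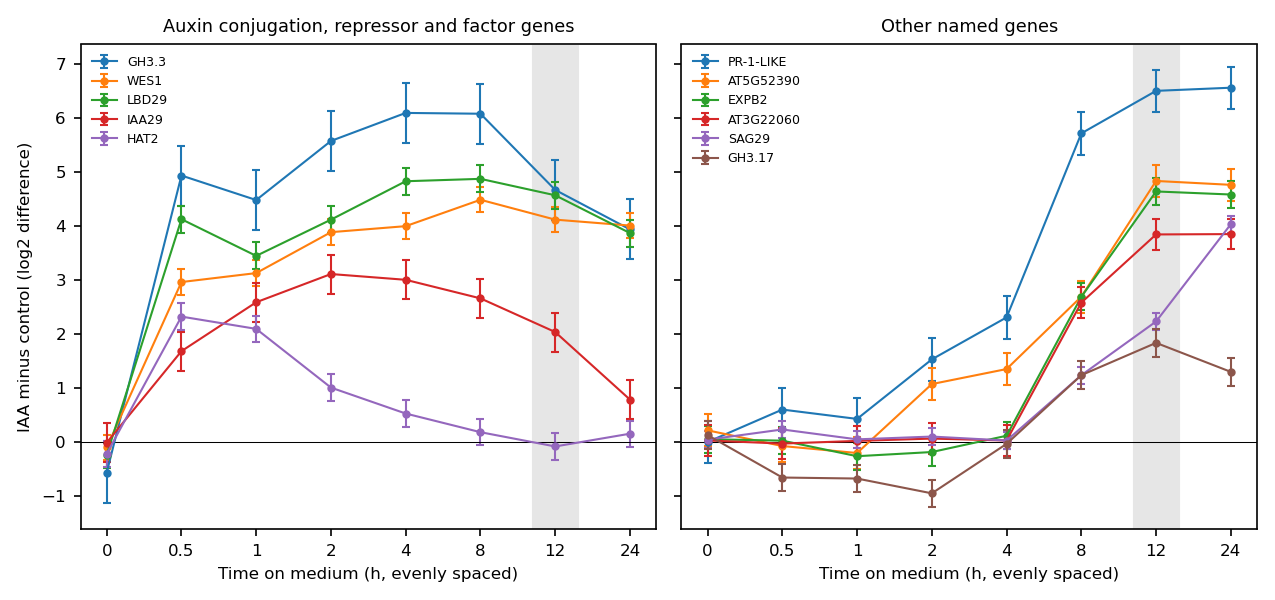
IAA minus control (log2 difference, y axis, error bars SE) at each time (x axis, h, evenly spaced) for auxin conjugation, repressor and factor genes (left) and other named genes (right), with 12 h shaded. GH3.3, WES1 and LBD29 are near 4 or higher from 2 h to 24 h, whereas EXPB2 and AT3G22060 stay near 0 through 4 h and reach 4.64 and 3.85 at 12 h.

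Between 12 and 8 h the effect differed at 15 probe sets (0.0659%), 13 positive and 2 negative. At an unadjusted p under 0.05 there were 790, fewer than the 1137 expected with no difference, so the few calls do not show equal effects. AT5G52390 had changes of 4.84 at 12 h and 2.70 at 8 h (difference 2.14 ± 0.42, adjusted p = 0.020), and EXPB2 of 4.64 and 2.69 (1.95 ± 0.36, adjusted p = 0.014). AT1G10640 went with them (1.31 ± 0.26), and PAP20, named above among the rises, had a difference of 1.24 ± 0.24 (adjusted p = 0.018). XTH32, a xyloglucan enzyme gene, was lower on IAA at 8 h (-1.12 ± 0.19) and not called at 12 h (0.14 ± 0.19). AT2G03740 was higher at 8 h (2.13 ± 0.25) and not called at 12 h (0.27 ± 0.25). Without replicate 1 in every group none of the 15 was left, without replicate 2 there was 1 call, without replicate 3 there were 7, without IAA 12 h replicate 1 or 2 there were 3, and without control 12 h replicate 1 there were 5.

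Between 12 and 24 h the effect differed at 112 probe sets (0.492%), 81 positive and 31 negative. Of the positive differences 52 were rises at 12 h and 36 were falls at 24 h. AT2G35380 read 10.81, 11.01 and 11.45 on IAA arrays and 10.16, 10.40 and 10.05 on control arrays at 12 h, a rise of 0.89 ± 0.24, and was lower on IAA at 24 h (-1.15 ± 0.24). AT4G38080 had the same signs, with 0.76 ± 0.23 at 12 h and -1.17 ± 0.23 at 24 h. Both calls at 12 h were lost without control replicate 3 (adjusted p = 0.050 and 0.053) and without IAA replicate 3 (0.092 and 0.20), that of AT4G38080 also without IAA replicate 2 or control replicate 1 or 2. The differences from 24 h were called without each of these arrays.

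In the other direction, SAG29 had a change of 2.24 at 12 h and of 4.04 at 24 h (difference -1.80 ± 0.22, adjusted p = 1.9e-05). AT5G61820 was lower on IAA at 12 h (-1.54 ± 0.25) and had a change of -0.0009 ± 0.25 at 24 h. AT1G05450 and AT1G33055 were called at 24 h alone. The differences of AT5G61820, AT1G05450 and AT1G33055 were each lost without 4 of the 6 arrays, taken singly (adjusted p up to 0.11, 0.18 and 0.12). The count of 112 fell to 6 without replicate 1 in every group, to 37 without replicate 2 and to 48 without replicate 3, and lay between 49 and 67 without IAA 12 h replicate 2 or 3 or control 12 h replicate 1 or 2.

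**Figure D5:**
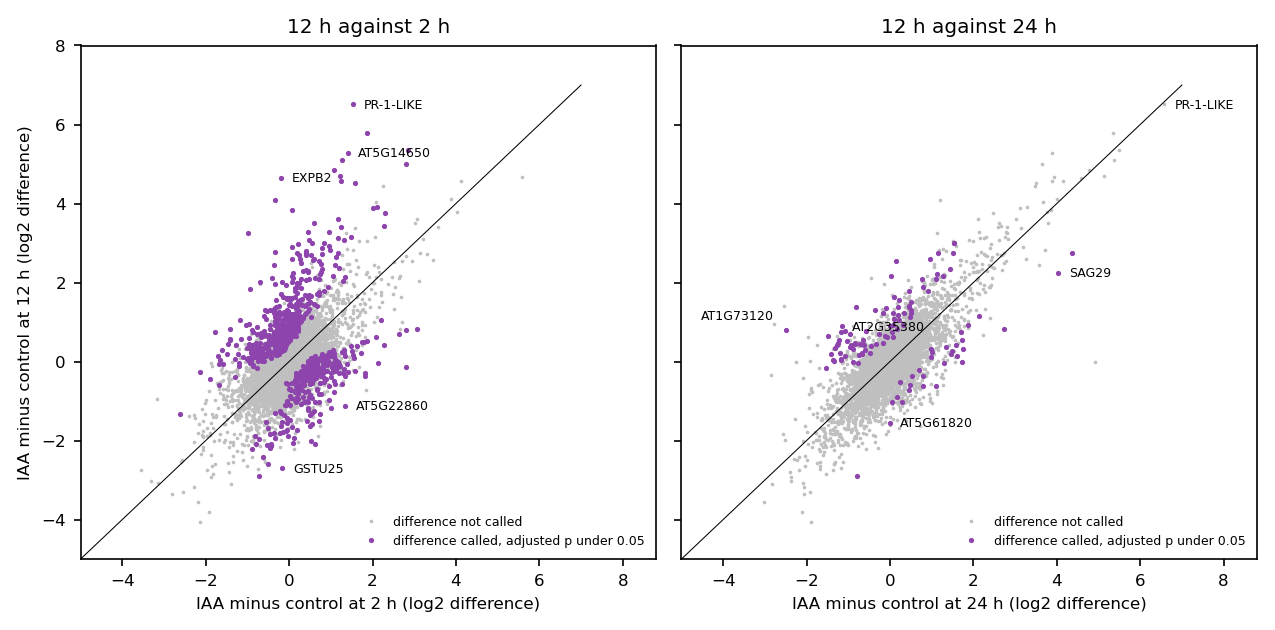
IAA minus control at 12 h (log2 difference, y axis) against the same at 2 h (left) and 24 h (right) for all 22746 probe sets, with the line of equal change. Purple points are the 754 and 112 probe sets whose difference between the times was called, with EXPB2 and PR-1-LIKE far above the line on the left and SAG29 below it on the right.

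Set against the mean of the 8 and 24 h effects, the 12 h effect differed at 2 probe sets of 22746 (0.00879%, 867 at an unadjusted p under 0.05). With no difference 1137 would be expected at that unadjusted p, so here too the few calls do not show equal effects. AT3G57960 read 7.48, 7.28 and 7.63 on IAA arrays, against 5.72, 5.49 and 5.80 on control arrays, a change of 1.79 ± 0.12, with 0.89 at 8 h and 0.92 at 24 h (difference 0.89 ± 0.14, adjusted p = 0.0093). AT3G61810 had a change of 1.19 ± 0.11, with 0.74 at 8 h and 0.19 at 24 h (difference 0.72 ± 0.13, adjusted p = 0.048). Neither was called without replicate 1, 2 or 3 in every group, nor was AT3G61810 without any 1 of the 6 arrays of 12 h or AT3G57960 without IAA replicate 1 or 3 or control replicate 2 (adjusted p from 0.062 to 0.18). In the direction of the change, 492 of the 2483 calls at 12 h were called at no other time, 34 of them at least 2-fold. SWEET9 (0.46 at 8 h and -0.04 at 24 h) and CSLC12 (-0.05 at 8 h and 0.21 at 24 h) were among these, and their 12 h changes were not shown to differ from the mean of the neighbouring times (adjusted p = 0.86 and 0.80).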

How the data were processed

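Biotin-labelled total RNA of whole roots was read on single-channel Affymetrix arrays, per the labels' protocols. The authors deposited log2 intensities, a unit read here from the values themselves. The arrays share a mean, so the authors put them on a common scale, but the software they used was not given in the sources used here. Values were taken as deposited.

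Affymetrix's own 64 control probe sets were excluded, which left 22746. The platform's gene table gives exactly 1 gene for 13513 of them (59.4%), several for 503, and does not list 8730. Symbols and gene order came from the RefSeq table of assembly TAIR10.1. A gene with several probe sets was taken by the one with the highest mean. No named gene had a further probe set. Of 12 further probe sets of other genes called at 12 h, 7 had the sign of the chosen probe set and 3 were called with it.

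The 16 group means were fitted to the 48 arrays without a covariate in limma 3.58.1 under R 4.3.3, by lmFit and then eBayes, on 32 residual degrees of freedom. The contrasts were IAA minus control at each time and the difference of the 12 h effect from that at 2, 8 and 24 h and from the mean of 8 and 24 h. Tests were two-sided and adjusted over all probe sets within a contrast. The fit was tested on simulated data with known changes. The simulated arrays varied independently, with the same spread in every group for a given probe set. That run therefore does not cover shared deviations of same-numbered arrays or unequal spread between groups.

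Genes were named by a rule. It took GH3.3 and LBD29, the 20 largest called rises and 20 largest called falls in which the arrays of the media did not overlap, up to 4 called members of each of 50 lists (or the largest change where none was called), and 4 genes in each direction for each difference between times. The lists had 372 measured genes of 2651 in the RefSeq table, and 7 lists had none, those for auxin amide hydrolases, auxin response factors and receptors, SAUR genes, phosphate and sulphate, aquaporins, jasmonate and brassinosteroid. Further list members outside this rule are also named in the text. The members and lists were chosen with earlier results of these data known.

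Replicate numbers are shared between the media, but no label says that they mark a shared batch, and they were not taken to pair the samples. Same-numbered arrays still deviated together (correlation above 0.1) in 20 of 24 pairs, and in 1 of 3 at 12 h. The fit without a block leaves such shared deviations in its error. Alternatives were quantile normalization, median centring, leaving out probe sets with low values, a block for the replicate number, another variance model, leaving out replicates or single arrays, the 12 h arrays alone, and other references.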

Additional observations from a re-analysis of the deposited data

Results flagged for a closer look

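The results listed here are those where the IAA effect at 12 h differed from the effect at another time by the test of the difference itself. The probe sets called numbered 754 for 12 against 2 h, 15 for 12 against 8 h, 112 for 12 against 24 h and 2 for 12 h against the mean of 8 and 24 h. Differences below are on the log2 scale.

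Against 2 h, the genes with the largest positive differences were PR-1-LIKE (4.97), EXPB2 (4.83), AT5G14650 (3.86) and AT2G19970 (3.81). Those with the largest negative differences were GSTU25 (-2.55), AT5G22860 (-2.46), UGT73B4 (-2.13) and AT1G18980 (-2.09).

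Against 8 h, the differences were 2.14 for AT5G52390, 1.95 for EXPB2, 1.31 for AT1G10640, 1.26 for XTH32 and -1.86 for AT2G03740. All 5 lost the call without at least 3 of the 6 arrays of 12 h, taken singly.

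Against 24 h, the positive differences were 3.29 for AT1G73120, 2.04 for AT2G35380, 1.93 for AT4G38080 and 1.86 for AT4G24140. AT1G73120 read 8.90, 8.62 and 7.98 on IAA arrays and 8.83, 7.50 and 6.77 on control arrays at 12 h, so its groups overlapped there, and its effect at 24 h was -2.49. Its call was lost without any array of 12 h but control replicate 1 (adjusted p up to 0.15), and that of AT4G24140 without IAA replicate 2 or 3 or control replicate 3 (adjusted p up to 0.10). The negative differences were -1.80 for SAG29, -1.54 for AT5G61820, -1.47 for AT1G05450 and -1.32 for AT1G33055.

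Against the mean of 8 and 24 h, the differences were 0.89 for AT3G57960 and 0.72 for AT3G61810, both with a larger rise at 12 h than at 8 or 24 h.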

How the results depend on the processing

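The count of 2483 probe sets called at 12 h was 2385 after quantile normalization, 2306 after median centring, 2428 with a filter on low values and 2473 from the 6 arrays of 12 h alone. It was 993 to 2324 without a replicate number in every group and 1716 to 2070 without a single array of 12 h. It was 969 with the 0 h effect subtracted, a contrast that also takes in the 6 arrays of 0 h. Against the mean of the 8 control groups, which takes in the control arrays of every time, it was 5008. With a fold of at least 2 it was 801. Why the count moved between these contrasts was not tested. IAA and control arrays of the same number deviated together (correlation above 0.1) in 20 of 24 pairs. That was all 3 pairs at each time but 4 h and 12 h, where it was 1 of 3, so the pairing did not hold for every pair of any contrast with 12 h. Over all times 20 IAA arrays of 24 and 19 control arrays of 24 correlated best with their own number. With the replicate number as a block the 12 h count was 3346 and all 100 named calls of 12 h were kept. The block gave 1224 for 12 against 2 h, 15 for 8 h, 156 for 24 h and 3 for the mean of 8 and 24 h, and with it the difference of XTH32 between 12 and 8 h had an adjusted p of 0.059. No named call reversed under any alternative. Of those 100, which are the genes named by the rule, 54 kept their call under every alternative but the fold. Without 1 of the 6 arrays of 12 h 30 lost it, and 37 lost it with the 0 h effect subtracted. Further called list members named in the text are not counted there. Of these, EXPA9, UGT87A2 and NDB1 lost their calls without any array of 12 h but control replicate 3. Without replicate 1, 2 or 3 in every group 41, 33 and 12 were lost.

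Counts of differences between times were less stable. With the 4 arrays left out that lay farthest from the mean of their group, an alternative added after the data were seen, 12 against 2 h gave 1392, 12 against 8 h 27 and 12 h against the mean of 8 and 24 h 1. Median centring gave 9 for 12 against 8 h and 1 for the mean, quantile normalization 1 and the filter 0 for the mean. Leaving out a replicate number or a single array of 12 h gave 142 to 1032 for 12 against 2 h, 0 to 13 for 8 h, 6 to 90 for 24 h and 0 to 2 for the mean. No probe set was called at 0 h under any of these. The cause of these shifts was not tested.

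Of the 2-fold calls, 49 rises and 24 falls had their lower group mean below the lower quartile of every array, where the signal limits the size of a change.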
